A study of Mus musculus with 2 samples.

Results

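The genes described here are 36 cell cycle and proliferation genes of MIN6 cells, and they were taken as a given list of cyclins, cyclin-dependent kinases, inhibitors, replication genes and mitosis genes. A probe was assigned to a gene where the accession printed in the spot tables carries that gene's symbol in the NCBI RefSeq annotation. All 36 genes had a probe, with 50 probes in all, among 20653 named genes and 39417 probes on the arrays. A probe counts as detected on an array where the scanner software rated its spot well above background. A gene detected on either array is called tested, which 35 of the 36 genes and 18513 of all named genes were. For the present description they were arranged in 4 groups: 8 G1 cyclins and kinases, 6 genes called the brakes of the cycle (with Mdm2, which opposes the brake p53, counted among them), 9 genes of S phase and 13 genes of G2 and mitosis.

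MIN6 is a mouse insulinoma line from a transgenic C57Bl/6 mouse, and it was used at passages 15 to 20. One culture had been given lentivirus made from PLVX-IRES-ZsGreen-mFTO, which carries mouse FTO, an RNA demethylase, together with the green fluorescent protein ZsGreen. The control had been given lentivirus from the same vector without FTO, so both cultures carry ZsGreen. Both were plated to about 50% confluence and transduced with 8 µg/ml polybrene, and fluorescence was looked at after 48 h. Neither is said to be a single clone. Cy3-labeled RNA of each culture was put on 1 Agilent mouse array, both on the same slide. With 1 array per condition, no difference below has a replicate check and no test or p-value was computed. Differences are given as FTO minus control on the log2 scale after quantile normalization. The time at which RNA was taken is not stated in the sources used here. A smaller share of dividing cells and less RNA per dividing cell cannot be told apart in RNA of whole cultures. The error beside the differences is the combined error estimate of both spots from the scanner software, and it does not cover the variation between cultures. In every member with a mean log2 signal over 10 it was 0.20, also where the 10 spots of a probe scattered by less. For these members a comparison with it is thus close to a fixed cutoff of 0.20.

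The cell cycle is driven by cyclin-dependent kinases, which act only when bound to a cyclin. In G1 the D cyclins with Cdk4 and Cdk6, and then the E cyclins with Cdk2, phosphorylate the retinoblastoma protein and release E2F factors, which turn on the genes for DNA replication. Later, FOXM1, B-MYB and NF-Y turn on the genes for mitosis, many of which carry the promoter element CHR. Beta cells of adult mice divide rarely, with cyclin D2 as their main D cyclin, whereas MIN6 cells divide in culture. MIN6 was derived from mice whose beta cells express the large T antigen of the virus SV40, a protein that binds both the retinoblastoma protein and p53.

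The members share promoter elements that the list was not made from. RefSeq promoter windows of GRCm38.p6, from 250 bases before to 50 after the start, were at hand for 28 of the 36 genes (34 windows). Those of Ccnd1, Ccnd2, Ccne2, Rb1, Mcm4, Ccna2, Foxm1 and Aurkb were not used here. E2F sites were searched as TTTCCCGC, TTTCGCGC, TTTGCCGC and TTTGGCGC, the CHR as TTTGAA and TTCGAA, and the NF-Y box as CCAAT, each on both strands with overlapping matches allowed. An E2F match was found in 23.5% of the member windows and 2.26% of all 32851 windows, a CHR in 32.4% and 19.2%, and an NF-Y box in 70.6% and 37.4%. By group, 5 of 8 S phase genes held an E2F match, against 1 of 5 G1 genes, 1 of 5 brakes and 1 of 10 genes of G2 and mitosis. Of the last group, 8 of 10 held a CHR and 9 of 10 an NF-Y box. A match says only that the letters are there. The upstream 250 bases of 3 members are printed to show the types, 5′ to 3′ on the strand of the gene, with E2F, CHR and NF-Y matches in capitals: Mcm6 (chr1:128359706-128359955, minus strand) with 3 E2F matches and 2 NF-Y boxes, Cdk1 (chr10:69352913-69353162, minus strand) with 1 E2F match, 2 CHR and 3 NF-Y boxes, and Top2a (chr11:99024190-99024439, minus strand) with 4 CHR and 6 NF-Y boxes.
Mcm6: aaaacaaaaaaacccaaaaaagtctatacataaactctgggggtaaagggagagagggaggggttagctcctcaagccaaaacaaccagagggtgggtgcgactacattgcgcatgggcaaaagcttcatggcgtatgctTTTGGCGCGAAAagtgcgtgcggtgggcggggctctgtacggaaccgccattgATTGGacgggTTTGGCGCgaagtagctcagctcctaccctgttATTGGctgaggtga
Cdk1: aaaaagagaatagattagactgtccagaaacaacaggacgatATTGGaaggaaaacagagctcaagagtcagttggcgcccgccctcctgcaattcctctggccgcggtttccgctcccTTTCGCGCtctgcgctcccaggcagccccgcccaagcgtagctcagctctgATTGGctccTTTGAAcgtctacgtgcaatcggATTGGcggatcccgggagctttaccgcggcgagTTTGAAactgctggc
Top2a: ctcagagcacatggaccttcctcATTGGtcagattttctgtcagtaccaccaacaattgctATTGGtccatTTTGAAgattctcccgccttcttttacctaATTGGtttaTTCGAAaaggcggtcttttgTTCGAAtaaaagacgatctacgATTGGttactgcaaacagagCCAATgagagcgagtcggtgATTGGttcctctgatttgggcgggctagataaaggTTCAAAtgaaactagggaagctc

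The arrays were bright in beta cell genes, as the label says. All 12 beta cell markers were tested, with Ins2 at a signal of 276722 on the FTO array and 320363 on the control array, and their median log2 difference was -0.02. Of the 6 fibroblast markers 5 were tested, with Col1a1 at 515 and 362 and summed signals of 951 and 721, and Pdgfra was well above background on neither array. Of the 6 immune and endothelial markers 5 were tested, with Cd3e at 3906 and 2388, Ptprc at 33.7 and 38.0 and summed signals of 4270 and 2749. Most of these sums came from Cd3e, the only tested marker of this list above 0, with a log2 difference of 0.30. The other 4 were below 0, with Pecam1 at -0.11 and Ptprc at -0.26, and the median of the list was -0.26. Past 1.5-fold were fibroblast Lum, higher at 62.1 against 29.4 on the control array, and Cd79a, lower at 28.4 against 49.7. Cdh5, at 7.16 and 12.6, passed it too, but it was not well above background on the FTO array and its bound leaves no fold. Of the 6 acinar and duct markers 4 were tested, with summed signals of 1329 and 1083, most of it from Krt19 at 1195 and 959. Cpa1 was at 69.9 and 51.7, a log2 difference of 0.29. The other tested markers of this list were lower, with -0.06 in Krt19, -0.15 in Cela1 and -0.37 in Prss2. Sums over different probes cannot be compared between lists, and they are of signals before normalization. Over all genes tested the sum was 2.34e+08 on the FTO array and 1.83e+08 on the control array. A higher sum on the FTO array thus also holds the overall brightness of that array. Alpha cell Gcg was bright, at 257411 and 243558, with a log2 difference of 0.0084. The part of other cells in the results below was not tested. Fto itself had a single probe, at 7301 on the FTO array and 5179 on the control array, a log2 difference of 0.06 beside a spot error of 0.20. The probe does not separate the arrays beyond that error, so every direction below rests on the labels. Where this probe lies on the transcript is not given, so whether it reads the RNA made from the vector is not known. The authors detected FTO overexpression in MIN6 cells by Western blot, which reads protein. Before normalization the FTO array was the brighter one, with a median signal of 292 against 237, and raw signals above and below are to be read with that in mind.

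Cell cycle genes were plainly expressed in both cultures, and their differences were small. Of the 35 tested genes, 34 were detected by both arrays and 32 had a mean log2 signal over 10. The median log2 difference was 0.0013, beside 0.0064 for all genes tested. Of the 35 genes, 19 lay above 0 and 16 below, where 51.6% of all genes tested lay above 0. Only Ccnd1 passed 2-fold, where 2.68% of all genes did, and only Ccnd1 and Ccne2 passed 1.5-fold, where 6.96% did. All 32 genes with a mean log2 signal over 10 lay within 1.2-fold, between -0.26 (Cdkn1a) and 0.19 (Aurka), and 93.5% of all genes of that brightness did the same. In that bright range 0.490% of all genes passed 1.5-fold and no member did. In 29 of the 35 genes (82.9%) the difference was smaller than its spot error, beside 72.2% of all genes tested and 86.3% of the bright ones. The 6 others were Ccnd1, Ccne2, Cdk2, Cdkn1a, E2f1 and Aurkb.

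**Figure D1:**
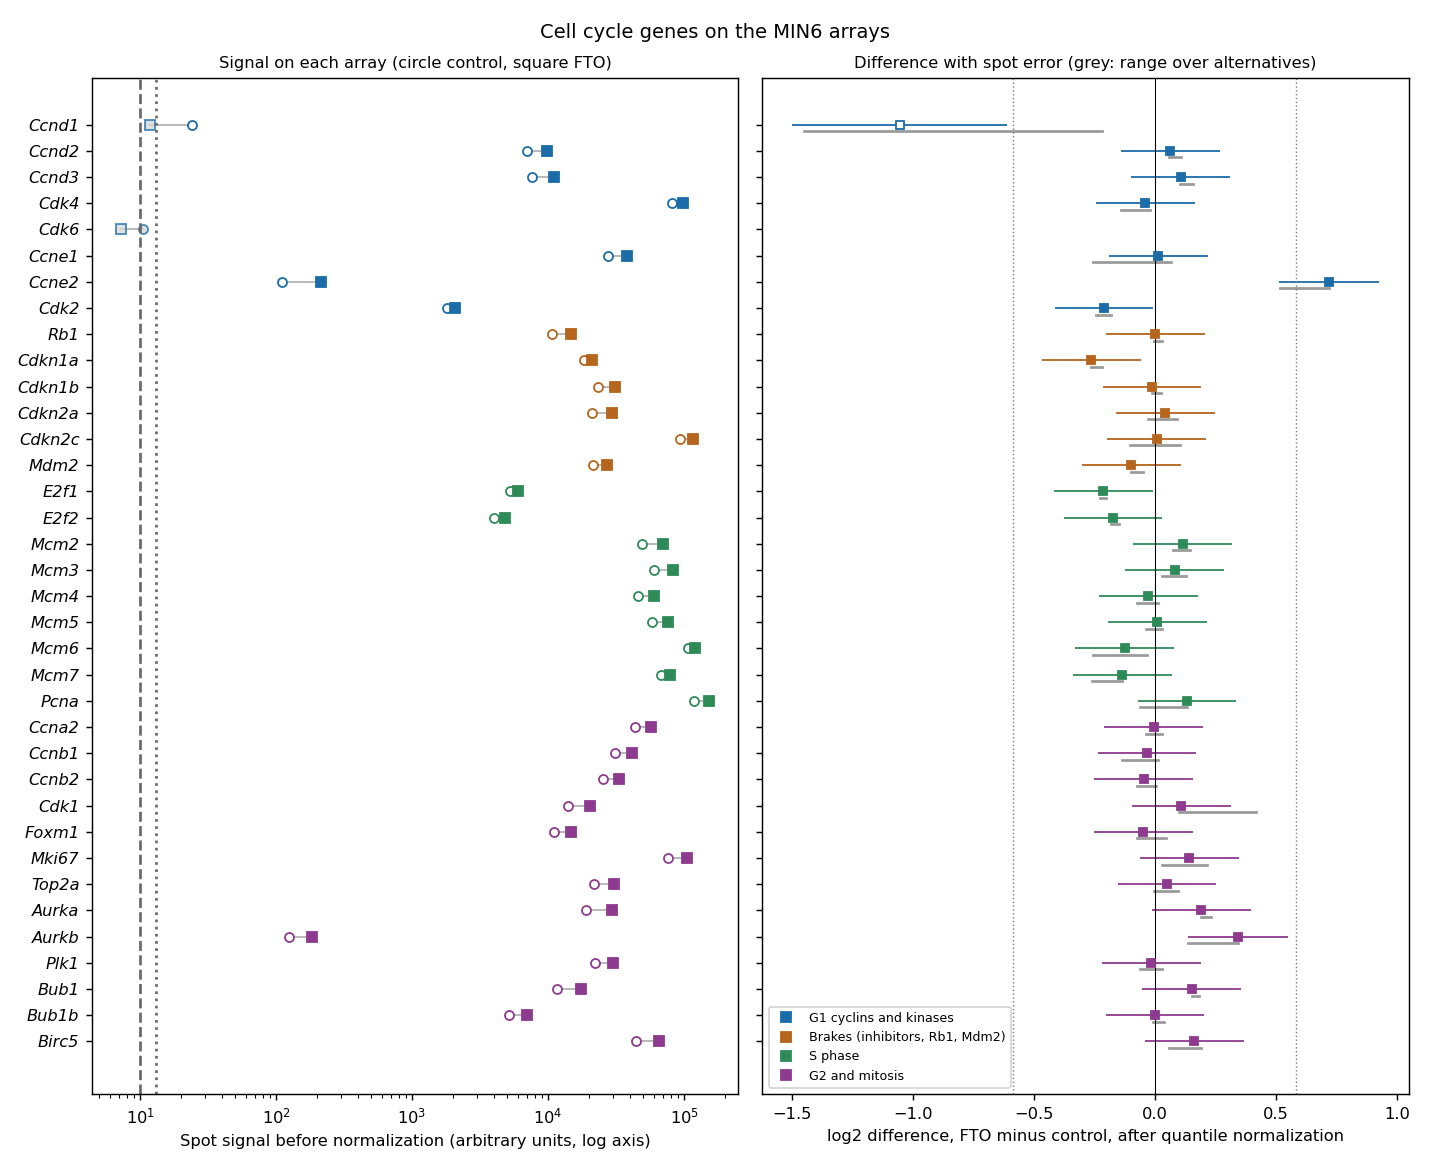
Signal of each of the 36 cell cycle genes on the control array (circles) and the FTO array (squares) before normalization, on a log axis (left, with the lowest signal among detected probes at 10.1 on the control array, dashed, and 13.1 on the FTO array, dotted; grey symbols were not well above background), and the log2 difference after normalization with its spot error (right; grey bars give the range over the processing alternatives, dotted lines mark 1.5-fold). Signals of different genes come from different probes and are not to be ranked; nearly all differences lie close to 0, with Ccne2 at 0.72 and Ccnd1 at -1.05 apart from the rest.

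**Figure D2:**
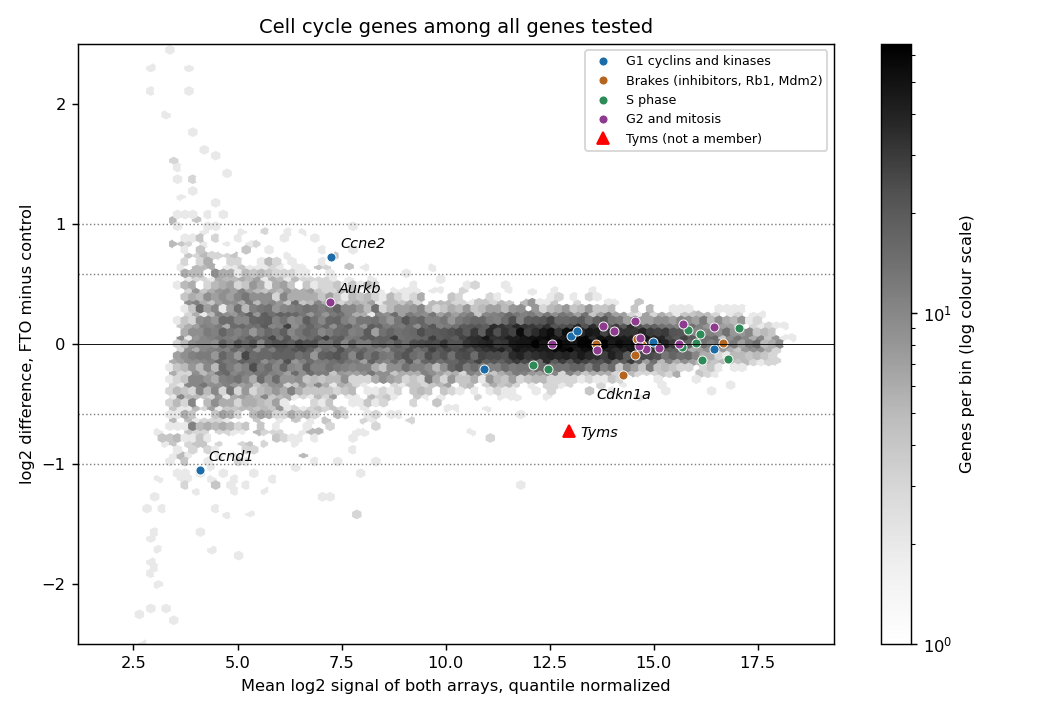
Each tested gene is placed by its mean log2 signal on both arrays and its log2 difference, FTO minus control, with all 18513 genes as grey bins, the cell cycle genes as colored points and dotted lines at 1.5-fold and 2-fold. The axis runs from -2.5 to 2.5 and leaves out 69 genes beyond it; the bright members lie within the dense band around 0, and the spread of all genes widens toward the dim end where Ccnd1 lies.

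The G1 cyclins and kinases held both genes that passed 1.5-fold. Cyclin D genes link growth signals to the cycle. Ccnd2 had a signal of 9855 on the FTO array and 7037 on the control array, a log2 difference of 0.06. Ccnd3 was at 11081 and 7653, a difference of 0.11, and its second probe gave the same value to within 0.0017. Ccnd1 was dim, at 24.1 on the control array and 11.8 on the FTO array, where it was not well above background. The difference of its normalized signals was -1.05 with a spot error of 0.45. With the FTO signal raised to the lowest signal among detected probes of that array, Ccnd1 was 1.88-fold lower, which is under 2-fold. That value, called its bound, is not a lower limit of the difference. The alternatives in processing placed the Ccnd1 difference between -1.45 and -0.22. Genes valued by a probe detected on a single array, whichever it was, often differ, and 20.0% of them were more than 2-fold lower. The share among those detected only on the control array, as Ccnd1 was, was not counted. The Ccnd1 spot also lies in an area of the FTO array, rows 229 to 456 and columns 1 to 34, where part of the surface lost signal: of the spots there that belong to dim probes printed 10 or more times, 22.8% fell short of their probe's median by over 0.5 in log2, against 0.704% at the same place on the control array. The spots that gave the values of Ccne1, Cdk2, E2f2, Ccna2 and Foxm1 lie there too. Those of Cdkn2a and Plk1 lie in a block of the control array where 18.2% of such spots fell short, from only 11 spots. The part of the area on the FTO array in the Ccnd1 value was not tested. With the bound in place of the measured value, 0 members passed 2-fold and 2 passed 1.5-fold, with the medians of the group and of all members as before.

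Cyclin E2 had the largest difference of any member measured on both arrays. Its gene, Ccne2, encodes one of the E cyclins that activate Cdk2 at the start of S phase. Its single probe (NM_001037134) had a signal of 213 on the FTO array and 111 on the control array. After normalization the difference was 0.72 and its spot error 0.21, which is 1.65-fold higher on the FTO array, where 2.80% of all genes were more than 1.5-fold higher. Among the genes with a mean log2 signal between 6 and 8, a range chosen after the value had been seen, 3.59% were. With scaling by the 75th percentile the difference was 0.52 and with normexp 0.56, both just under 1.5-fold. Ccne1 encodes the other E cyclin. Its values were on both sides of 0. The brighter probe of Ccne1 was at 38073 and 27773, a difference of 0.02, and its second probe was at 3001 and 2715, a difference of -0.26.

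The kinases of G1 differed little between the arrays. Cdk4, a partner of the D cyclins, was read by 3 probes, and the brightest, at 98859 on the FTO array and 81091 on the control array, had a difference of -0.04. The other probes of Cdk4 gave values down to -0.08. Cdk6, the other partner, was the only member that was not tested: its single probe, at 7.31 and 10.5, was well above background on neither array. Cdk2 was at 2057 and 1815, a difference of -0.21, and its spot lies in the area just described. Over the 7 tested genes of the group the median was 0.02, with 4 genes above 0 and 3 below.

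The brakes of the cycle were bright on both arrays. Among them only Cdkn1a, which encodes the kinase inhibitor p21 and is a classic target of p53, had a difference above its spot error. Its main probe is printed 10 times on each array. The 10 spots ran from 19790 to 22518 with a median of 21210 on the FTO array, and from 17431 to 20033 with a median of 18581 on the control array. The raw signals were thus higher on the FTO array, and after normalization the difference was -0.26. The normalized spots lay between 14.05 and 14.24 on the FTO array and between 14.31 and 14.51 on the control array. How often the spots of other probes printed 10 times lie apart in this way was not counted. A second and much dimmer probe, assigned to another transcript, gave -0.25, from signals of 110 and 115. The spots of a probe share 1 RNA sample per array, so they tell of the arrays and not of separate cultures. Cdkn1a kept its direction under all 11 alternatives, between -0.26 and -0.22.

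The other brakes differed by less. Rb1, the gene of the retinoblastoma protein, is also printed 10 times. Its spots ran from 14060 to 15544 on the FTO array and from 10274 to 11496 on the control array, and after normalization they overlapped almost fully, with a difference of 0.0013. Cdkn1b, which encodes p27, was at 31094 and 23251, a difference of -0.01. Cdkn2a, whose locus encodes p16 and the p53 activator ARF, was at 29413 and 21021, a difference of 0.04, and its second probe gave -0.03. Cdkn2c, which encodes the Cdk4 and Cdk6 inhibitor p18, was at 117182 and 93633, a difference of 0.0082. Mdm2, the ubiquitin ligase that degrades p53 and, like Cdkn1a, is induced by it, was at 27292 and 21458, a difference of -0.10. The median of the 6 genes was -0.0050, and 0.0013 over the 5 without Mdm2, none passed 1.5-fold, and 3 lay on either side of 0.

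**Figure D3:**
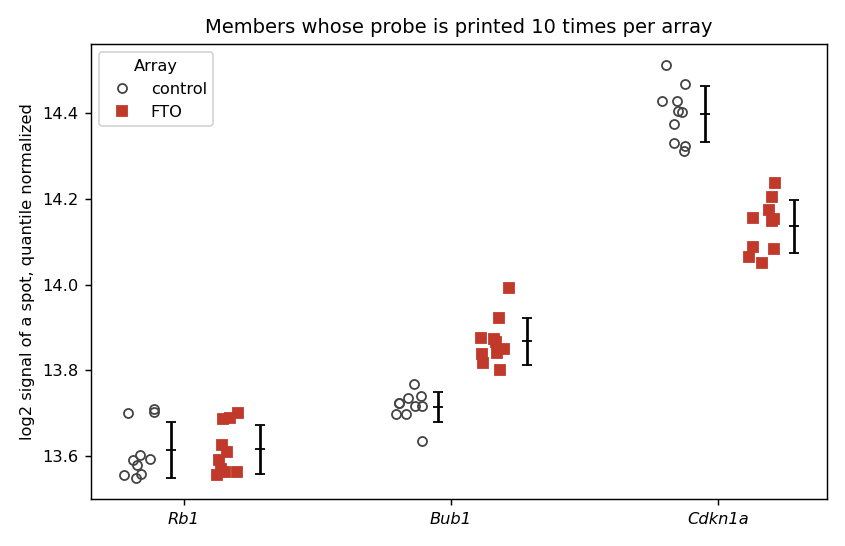
Normalized log2 signal of every spot of the members printed 10 times on each array, Rb1, Bub1 and Cdkn1a, on the control array (circles) and the FTO array (squares), with the mean and SD over the 10 spots beside them. The log2 differences were 0.0013 for Rb1, 0.15 for Bub1 and -0.26 for Cdkn1a. The spots share 1 RNA sample per array and are not replicates of the condition. How often the spots of other probes printed 10 times lie apart was not counted.

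The genes of S phase lay on both sides of 0. E2f1 and E2f2 encode E2F factors at the head of the program. E2f1 was at 6053 and 5233, a difference of -0.21, and E2f2, whose spot lies in the area of lost signal, was at 4819 and 4038, a difference of -0.17, which is under its error of 0.20. The 6 other E2F genes on the arrays, E2f3 to E2f8, ran from -0.13 to 0.21, with 4 above 0 and 2 below. The 6 Mcm genes encode the ring that unwinds DNA at the replication fork. They split evenly, although Mcm4 and Mcm5 changed sign under other processing: Mcm2 was at 69409 and 48668, a difference of 0.12, while Mcm7 was at 79175 and 67768, a difference of -0.13. Mcm3 was at 83034 and 60541 with a difference of 0.08, and Mcm5 at 75618 and 57670 with 0.01. Mcm4 was at 59630 and 45746 with a difference of -0.03, and Mcm6 at 119893 and 106587 with -0.12. All 6 differences were smaller than their spot error of 0.20, so they give no direction for any of these subunits. Pcna, the sliding clamp of DNA polymerase, was at 152772 and 118822, a difference of 0.13. The median of the 9 genes was -0.03, with 4 above and 5 below 0, and E2f1 was the only one beyond its spot error.

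In the genes of G2 and mitosis 12 of 13 differences were under the spot error and none passed 1.5-fold. Their median was 0.05, beside 0.0064 for all genes tested, and between 0.03 and 0.11 under the processing alternatives. Of the 13 genes 8 (61.5%) lay above 0, beside 51.6% of all genes tested. Aurkb, the kinase of the chromosomal passenger complex, was the exception to the error, at 183 on the FTO array and 124 on the control array, a difference of 0.35 beside an error of 0.21. With the 75th percentile as scale it was 0.14. Its partner Birc5, which encodes survivin, was at 65286 and 44311 by the brightest of 3 probes, a difference of 0.16, and the other probes gave 0.05 and -0.03.

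The spindle kinases and checkpoint genes all differed by less than their spot error. Aurka, which acts at the spindle poles, was at 29632 and 19145, a difference of 0.19. Plk1, the polo kinase of mitotic entry and exit, was at 29885 and 22263, a difference of -0.02. Bub1, a kinase of the spindle checkpoint, is printed 10 times: its spots ran from 16688 to 19037 on the FTO array and from 10939 to 11991 on the control array. After normalization they lay between 13.80 and 13.99 and between 13.64 and 13.77, without overlap, and the difference was 0.15. Bub1b, which encodes the checkpoint protein BubR1, was at 6971 and 5181, a difference of 0.00036. The SD over the spots of Bub1 was 0.05 on the FTO array and 0.03 on the control array.

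The cyclins and the kinase of mitosis shared no direction. Cdk1, the mitotic kinase, was at 20401 on the FTO array and 13924 on the control array by its brightest probe, a difference of 0.11, and its dimmer probes gave 0.24 and 0.42. Ccna2, the cyclin of S phase and G2, was at 57393 and 43419, a difference of -0.0050. The mitotic cyclins Ccnb1, at 41105 and 31187, and Ccnb2, at 33331 and 25347, had differences of -0.03 and -0.05. Foxm1, the factor that drives many of these genes, was at 14696 and 11142, a difference of -0.05, and its second probe gave 0.05. The proliferation marker Mki67 was at 104687 and 76308, a difference of 0.14, with 0.19 at its second probe, and Top2a, the topoisomerase that untangles sister chromatids, was at 30767 and 21936, a difference of 0.05.

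Probes of one gene gave the same direction only in part at this size of difference. In the 10 members with several tested probes, 24 probes in all, the probes lay on one side of 0 in 6 genes and on both sides in 4 (Ccne1, Cdkn2a, Foxm1 and Birc5). The span between the probes of a gene had a median of 0.08 and reached 0.31 in Cdk1.

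**Figure D4:**
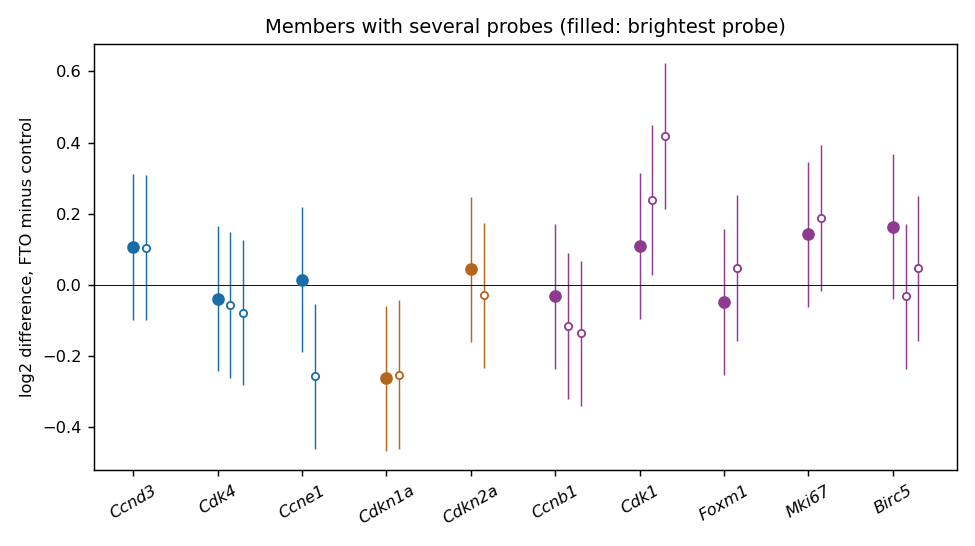
log2 difference, FTO minus control, of every tested probe of the 10 members with several probes; filled points are the brightest probe, open points the others, and bars are the spot error. The probes of Cdk1 span from 0.11 to 0.42 and those of Ccne1 from -0.26 to 0.02, while both probes of Cdkn1a lie at -0.26 and -0.25.

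Other genes of the cycle, from 4 lists beside the members, gave the same picture of small differences with a single exception. Of all genes tested 51.6% lay above 0 and 6.96% passed 1.5-fold. Most genes of these lists had a mean log2 signal over 10, and of all genes of that brightness 53.6% lay above 0 and 0.490% passed 1.5-fold. Among the 20 tested of 21 other G1 regulators, 0 passed 1.5-fold and the median was 0.09, with 14 above 0; they ranged from -0.32 (Myc, a transcription factor that promotes growth) to 0.25 (Tfdp2, a partner of E2F factors). Among 46 other mitosis genes 0 passed 1.5-fold, with a median of 0.04 and 30 above 0, and the range ran from -0.25 (Kif2c, a kinesin that shortens microtubules) to 0.46 (Cenpf, a kinetochore protein whose spot lies in the area of lost signal). Cdc20, the activator of the anaphase-promoting complex, was at 82456 on the FTO array and 63139 on the control array, a difference of 0.01. Among 37 other replication genes the median was -0.0015, with 18 above 0 and 19 below, and 1 passed 1.5-fold.

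That gene was Tyms, thymidylate synthase, which makes the thymidine nucleotide for DNA. Its single probe (NM_021288), outside the area of lost signal, was at 7267 on the FTO array and 8935 on the control array, so it was lower on the FTO array even before normalization, although that array had the higher median signal. After normalization it was lower by a log2 difference of -0.73, beside an error of 0.20, and the difference lay between -0.73 and -0.71 under all 11 alternatives. Among all genes tested 4.15% were more than 1.5-fold lower, and among those with a mean log2 signal over 10, as Tyms has, 0.400% were. Other genes of nucleotide supply did not share its value. Rrm1 and Rrm2, the subunits of ribonucleotide reductase, had differences of -0.0015 and -0.23, and Tk1, thymidine kinase, of -0.07.

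The p53 pathway, to which Cdkn1a and Mdm2 belong, had a median of -0.02 over 25 tested genes, with 11 above 0 and 14 below and 0 past 1.5-fold. Of all genes tested 51.6% lay above 0 and 6.96% passed 1.5-fold, and of the bright ones 0.490% passed it. The values ran from -0.36, in the stress gene Sesn2, to 0.25, in Eda2r, which was dim at 81.8 and 61.4. Among the 11 above 0 were also Rrm2b at 0.23, Tigar at 0.13 and Ppm1d at 0.10. Bbc3, which encodes the cell death protein PUMA, was at 3342 and 3194, a difference of -0.34. Trp53 itself was at 3492 on the FTO array and 2883 on the control array, a difference of -0.13, and its spot lies in the area of lost signal. Ccng1, which encodes cyclin G1, had a difference of -0.02.

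**Figure D5:**
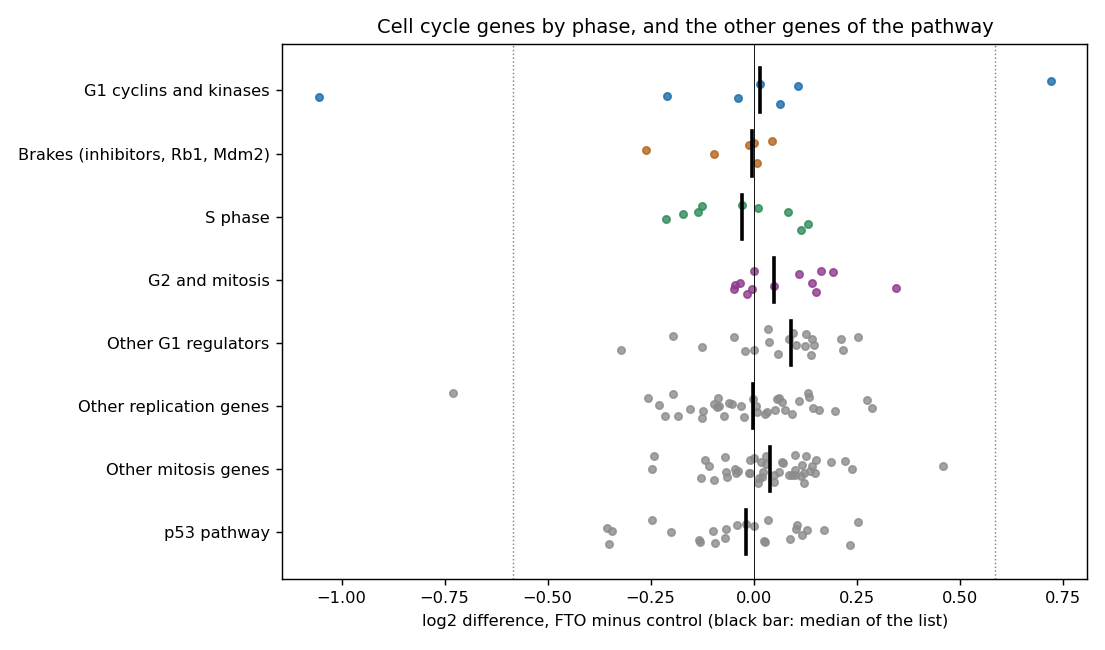
log2 difference, FTO minus control, of each tested gene in the 4 member groups (colored) and in 4 lists of other genes of the pathway (grey), with the median of each list as a black bar and 1.5-fold as dotted lines. All 8 medians lie between -0.03 and 0.09; Ccnd1 and Ccne2 among the members and Tyms among the other replication genes lie beyond the dotted lines.

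The differences of the members are given by promoter element as a description, with no test. The 8 members with an E2F match had a median of -0.06, with values between -0.21 and 0.11, and the 19 tested members with a window but no E2F match had a median of 0.0082. With a CHR the median was 0.05 over 11 genes and without one -0.0016 over 16. With an NF-Y box it was 0.0094 over 22 genes and without one -0.04 over 5. Of the genes whose promoters are printed, Mcm6 was at -0.12, Cdk1 at 0.11 and Top2a at 0.05.

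The processing set the sign of the smallest differences. Of the 35 members, 15 changed sign under at least 1 of 11 alternatives, none of them with a difference over 0.13 in size, and 20 kept it under all alternatives that gave a value. The genes that changed sign were Ccne1, Rb1, Cdkn1b, Cdkn2a, Cdkn2c, Mcm4, Mcm5, Pcna, Ccna2, Ccnb1, Ccnb2, Foxm1, Top2a, Plk1 and Bub1b. Scaling by the 75th percentile left 38.8% of all genes and 16 of the 35 members above 0, and cyclic loess 50.1% and 23 of 35.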

How the data were processed

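One array of MIN6 cells transduced with the FTO lentivirus and one of cells with the empty vector were analysed, and groups came from the sample labels. The authors deposited the intensity of each spot as written by Agilent Feature Extraction 11.0.1.1, with background subtracted and the trend over the surface removed, and without normalization between arrays. A second deposited table holds log2 values, quantile normalized in GeneSpring according to the methods. From the intensities, control spots and outlier spots (148 on the FTO array and 141 on the control array) were left out, spots of a probe were averaged as log2, and quantile normalization was done with limma 3.58.1 in R 4.3.3. No spot was saturated.

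Of 39417 probes, 27224 were named through RefSeq accessions (GRCm38.p6). Probe coordinates are not given. Detection means the scanner's rating of well above background, taken as met by a probe with 10 spots if 50% of them met it. It held for 82.0% of probes on the FTO array and 84.9% on the control array, and a gene was tested if either array detected a probe. Its value is that of its brightest probe, and it passed a threshold (was called) at 2-fold or 1.5-fold. For a bound, the dim signal was replaced by the lowest signal among detected probes of that array, if that was higher. A bound is thus a substituted value and not a limit on the difference. The number of arrays, 1 per condition, limits the precision, and no test was made. Members of the list, all named with every probe, and the other gene lists, markers and alternatives were chosen with earlier results of these data known. Beyond the members, genes past 1.5-fold and a few genes per list best known for their role or at its ends were named. Some at the ends, and the p53 genes named above 0, were chosen after their values were seen. The normalization and the 2-fold threshold were run on simulated arrays, made from probes detected on both arrays with added changes larger than 2-fold. The simulation did not cover the 1.5-fold threshold, dim probes, areas of lost signal or variation between cultures, and no result here rests on it. Python 3.11.15 with pandas 2.3.3, numpy 2.4.6 and matplotlib 3.10.9 was used.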

Additional observations from a re-analysis of the deposited data

How the results depend on the processing

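The 11 alternatives were 75th percentile scaling, cyclic loess, normexp with an offset of 50, the deposited log2 table, a floor of 5, 2 other filters on dim probes, outlier spots kept, 2 other ways of joining the probes of a gene, and the areas of lost signal left out (that of the FTO array and 1 block of 76 rows and 17 columns of the control array). The number of members past 2-fold was 1, and it was 0 with normexp, with probes that both arrays detected and with the areas left out. In each case the gene concerned is Ccnd1, which lay at -0.22 with normexp and was not tested in the other cases. The number past 1.5-fold was 2, and it was 1 with the 75th percentile scaling, with probes that both arrays detected and with the areas left out, and 0 with normexp. The medians of all members (-0.0060 to 0.03), of the member groups and of the other lists moved by less than 0.1 under every alternative, and the number of members above 0 lay between 16 and 23. No difference past 1.5-fold changed sign. Single values that moved by more than their spot error were Ccnd1 with normexp, Ccne1 at its other probe (-0.26), Cdk1 at its dimmer probe (0.42) and Aurkb with the 75th percentile scaling (0.14). Leaving out a replicate was not run, and no paired analysis was possible because there is 1 array per condition. Signals near background limit what can be said of Ccnd1 and Cdk6.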
